A study of Mus musculus with 32 samples.

Results

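Glycolysis and glycogen metabolism were followed through 36 genes that encode enzymes and regulators of both pathways, 36 of the 55487 genes in the count table. The genes were taken by symbol, through the Ensembl identifiers of the table. They were chosen with earlier results of these data known. Aldoa is the symbol of 2 rows of the table. The second of them (ENSMUSG00000114515) averaged 32.4 counts per library and was kept apart. All 36 genes passed the filter on low counts in every fit.

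The libraries were made from polyA RNA of 2 whole muscles of the left leg, the gastrocnemius medialis, which is mostly fast-twitch, and the soleus, which is mostly slow-twitch. Both muscles came from each of 16 mice. In double KO mice Acvr1b and Tgfbr1 had both been deleted in myofibres, in Acvr1b KO mice only Acvr1b and in Tgfbr1 KO mice only Tgfbr1, and control mice kept both, with 4 mice per genotype and hence 4 libraries in each of 8 groups. These genes encode type I receptors of the TGF-β family (ALK4 and ALK5) that pass signals of activins, myostatin and TGF-β into muscle fibres. Tamoxifen was injected to start the deletion when the mice were 6 weeks old, and the muscles were dissected 3 months afterwards. The labels give neither the promoter that drove recombination nor the sex of the mice, and do not say what the control mice were given. The double KO mice carry animal numbers apart from those of the other mice, so that cohort and genotype cannot be told apart. In RNA of a whole muscle, fewer cells of a type and less RNA per cell cannot be told apart either.

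Glycolysis turns glucose into pyruvate in the cytosol, and lactate dehydrogenase links pyruvate to lactate. Glycogen is the sugar store of the fibre: phosphorylase releases glucose 1-phosphate from it, and phosphoglucomutase feeds this into glycolysis. Fast-twitch fibres use both pathways for short bursts of work, slow-twitch fibres burn more of their fuel in mitochondria, and several steps are run by a muscle isozyme beside one that most other tissues use.

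Acvr1b served as the check of the labels. In gastrocnemius it measured 23.3, 17.04, 14.03 and 15.5 CPM in double KO and 27.2, 26.6, 24.9 and 23.7 CPM in Acvr1b KO, against 94.2, 117, 103 and 112 CPM in control libraries. It was low in every library in which the gene had been targeted, and likewise in soleus (6.93 to 10.05 CPM in double KO and 11.1 to 13.9 CPM in Acvr1b KO, against 29.1 to 45.97 CPM in control). In Tgfbr1 KO, where Acvr1b had not been targeted, it measured 70.1 to 103.9 CPM in gastrocnemius and 24.03 to 34.1 CPM in soleus. These log2 changes against control, −0.33 and −0.57, did not pass the threshold. Tgfbr1 was not low where it had been targeted: in gastrocnemius it measured 56.3, 49.1, 47.4 and 38.4 CPM in double KO and 31.8, 30.5, 31.1 and 24.6 CPM in Tgfbr1 KO, against 37.5, 23.8, 29.7 and 22.9 CPM in control, so that all double KO libraries lay above the controls. Its log2 change was 0.76 in double KO (SE 0.16, adjusted p = 0.00285) and 0.046 in Tgfbr1 KO (adjusted p = 0.999), and in soleus it did not pass in either (0.69 and −0.12). Soleus double KO 1 measured 51.2 CPM of Tgfbr1. The other soleus double KO libraries had 14.7, 16.7 and 17.04 CPM, and the soleus controls 13.6 to 17.2 CPM. These counts cover all exons and do not check a deletion of single exons. Total counts per library lay between 16535498 and 54456977. In gastrocnemius, double KO 1, Tgfbr1 KO 1 and control 1 lay furthest from the rest of their groups over all genes, and in soleus double KO 1 and Acvr1b KO 1 did. They are called the libraries that stood apart. Mitochondrial genes took 25.99% of the counts of gastrocnemius control 1 and 10.4 to 13.9% of those of the other 3. The muscle labels matched the fibre-type markers: all 10 slow-fibre contractile genes were higher in soleus (summed level 26495 to 31365 CPM in control soleus, against 2103 to 3171 CPM in control gastrocnemius), and 10 of 12 fast-fibre genes were lower (45781 to 59045 CPM in soleus against 171849 to 209604 CPM in gastrocnemius). Levels are library-scaled counts (CPM) on 1 scale for all 32 libraries, log2 fold changes come from edgeR's quasi-likelihood fit, and a gene is called when its Benjamini-Hochberg adjusted p over all genes tested is under 0.05.

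Per kilobase of exon, the module spanned a wide range in control muscle. These levels depend on the exon length of the gene model and on how reads shared between copies were divided. Fractional counts occurred in 32 libraries for Aldoa and Gapdh and in 18 for Pygm. The order below is that of these values and may not be the order of the transcripts. In control gastrocnemius the highest level was that of aldolase A (Aldoa, 4158 ± 559.8 CPM per kb, mean ± SD, n = 4), which splits fructose 1,6-bisphosphate. Muscle glycogen phosphorylase (Pygm, 2695 ± 216), muscle enolase (Eno3, 2268 ± 482), muscle phosphoglycerate mutase (Pgam2, 1375 ± 183) and muscle phosphofructokinase (Pfkm, 1268 ± 114 CPM per kb) followed. Aldoa stood above Pygm by more than the spread of both, while Pygm and Eno3, and Pgam2 and Pfkm, lay within 1 SD of each other. At the other end were platelet phosphofructokinase (Pfkp, 0.553 ± 0.0571) and the brain-type aldolase C (Aldoc, 0.08996 ± 0.0254 CPM per kb). In control soleus Aldoa again led (1405 ± 97.8 CPM per kb), before Eno3 (815 ± 89.8), Pgam2 (676 ± 41.1) and Pygm (668 ± 92.9), of which the last pair did not differ beyond its spread, and Ldhb came next (519.8 ± 6.18 CPM per kb). Together the 36 genes took 1.42 to 2.11% of all counts in the 16 soleus libraries and 2.90 to 4.93% in the 16 gastrocnemius libraries, with no overlap between the muscles.

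Between the muscles most of the module differed. In control mice, 4 of the 36 genes were higher in soleus and 21 were lower than in gastrocnemius, 25 in all (69.4%), where 40.4% of all genes tested were called (20.5% higher, 20% lower). The median log2 difference of the 36 genes was −1.10, that of all genes 0.067. All 4 control soleus libraries lay above all 4 control gastrocnemius libraries in 6 of the 36 genes and below them in 21, where 38.4% of all genes had no overlap. The 2 muscles came from the same mice. With the mouse as a block 28 were called, the added ones being muscle glycogen synthase (Gys1, adjusted p = 0.00991), Pgm2 (0.00883) and Pfkfb1 (0.0471).

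The 6 genes with the largest fall in soleus encode enzymes of the glycerol phosphate shuttle, subunits of phosphorylase kinase and a phosphoglucomutase. Mitochondrial glycerol-3-phosphate dehydrogenase (Gpd2; ENSMUSG00000026827, chromosome 2, 57237635 to 57370719), which passes electrons from glycerol phosphate to the respiratory chain, had 21.3, 27.04, 19.4 and 19.01 CPM in control soleus and 220.5, 209, 209.7 and 209 CPM in control gastrocnemius. Its log2 difference was −3.29 (SE 0.16, adjusted p = 2.85e-15). Its cytosolic partner Gpd1, which reoxidises glycolytic NADH, had 67.2, 85.1, 46.6 and 65.6 CPM in soleus and 628, 643, 478 and 671 CPM in gastrocnemius, a log2 difference of −3.19 (SE 0.19, adjusted p = 6.51e-14). In both genes every soleus library lay far below every gastrocnemius library. Of phosphorylase kinase, the calcium-sensitive enzyme that switches phosphorylase on, 3 subunit genes were among the 6. The muscle α subunit Phka1 had 183, 212, 158 and 208 CPM in soleus and 1373, 1388, 1209.7 and 1451 CPM in gastrocnemius (log2 difference −2.83, SE 0.16, adjusted p = 4.02e-14). The β subunit Phkb (87.7 to 120.3 CPM in soleus, 527 to 627 CPM in gastrocnemius; log2 difference −2.48, SE 0.15, adjusted p = 6.91e-14) and the catalytic γ subunit Phkg1 (67.98 to 89.7 CPM in soleus, 419.9 to 479 CPM in gastrocnemius; log2 difference −2.48, SE 0.15, adjusted p = 2.03e-13) were lower as well, and the liver-type α subunit Phka2 was not called (0.24, interval −0.066 to 0.54). The phosphoglucomutase gene Pgm1 (ENSMUSG00000025791, chromosome 4, 99929414 to 99987294; its symbol has been exchanged with that of Pgm2 between annotation releases) had 239, 278, 195 and 252 CPM in soleus and 1206, 1304, 1261 and 1347 CPM in gastrocnemius, a difference of −2.41 (SE 0.16, adjusted p = 5.57e-13). No soleus library reached the lowest gastrocnemius library for any of these 6 genes.

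The other 15 lower genes included Ppp1r3a (−2.02), the regulatory subunit that binds protein phosphatase 1 to muscle glycogen, Pygm (−2.01) and lactate dehydrogenase A (Ldha, −1.75). Every step from phosphoglucose isomerase to pyruvate kinase had its main muscle gene lower in soleus: Gpi1 −0.94, Pfkm −1.30, Aldoa −1.56, Tpi1 −1.33, Gapdh −1.17, Pgk1 −1.42, Pgam2 −1.02, Eno3 −1.48 and Pkm −1.47, with adjusted p from 1.72e-11 to 0.00107. Gpi1 and Pgk1 had fractional counts in 31 libraries, and Aldoa, Tpi1, Gapdh, Pkm and Ldha in 32. Their levels are thus uncertain by what was divided between copies. The remaining lower genes were Bpgm (−1.22), Pfkfb4 (−1.31) and the brain-type phosphorylase Pygb (−0.51, adjusted p = 0.00231). The 11 genes that were not called without the block lay between −0.66 and 0.53 (log2 difference). Among them were 3 genes of glycogen synthesis, the synthase Gys1 (0.43, adjusted p = 0.149), the primer glycogenin (Gyg, 0.32, 0.246) and Ugp2, which makes UDP-glucose (0.26, 0.317). Without the libraries that stood apart these 3 were called (0.00147, 0.00268 and 0.00368). The others were Pgm2, Pfkfb1, Pfkfb2, Pfkp, Phka2, Eno1, Aldoc and Ppp1r3d.

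The 4 genes that were higher in soleus were Ldhb, Gbe1, Pgam1 and Pfkl. Ldhb (ENSMUSG00000030246, chromosome 6, 142490249 to 142507957), the heart-type lactate dehydrogenase subunit, had 816, 820.2, 803 and 825 CPM in soleus and 141, 189, 198 and 201 CPM in gastrocnemius, a log2 difference of 2.16 (SE 0.23, adjusted p = 1.21e-08). The glycogen branching enzyme Gbe1 had 155, 165, 131 and 158 CPM in soleus and 77.7, 59.9, 55.5 and 69.7 CPM in gastrocnemius (log2 difference 1.21, SE 0.20, adjusted p = 1.90e-05). For both, all soleus libraries were above all gastrocnemius libraries. Phosphoglycerate mutase 1 (Pgam1), the form of most other tissues, had 5.08, 5.74, 7.27 and 5.31 CPM in soleus and 2.77, 3.596, 3.77 and 3.41 CPM in gastrocnemius (log2 difference 0.79, SE 0.17, adjusted p = 0.00057), again without overlap. Pgam1 and Ldhb had fractional counts in 32 and 19 libraries, so that their levels are uncertain. Liver phosphofructokinase (Pfkl) had 10.1, 7.99, 11.8 and 11.3 CPM in soleus and 7.37, 6.75, 8.85 and 8.67 CPM in gastrocnemius (log2 difference 0.38, SE 0.13, adjusted p = 0.0176), and these libraries overlapped. The Pfkl call was lost without control 1 or 2 of gastrocnemius or control 3 or 4 of soleus (adjusted p between 0.0585 and 0.0801), in a fit of the compared libraries alone (0.0841) and with no filter on low counts (0.0546).

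Lactate dehydrogenase, phosphoglycerate mutase and phosphofructokinase (Pfkm and Pfkl) each pair a gene that was lower in soleus with one that was higher. For lactate dehydrogenase and phosphoglycerate mutase, the 250 bases upstream of the RefSeq starts (GRCm38.p6) are shown, 5′ to 3′ on the gene's strand. Capitals mark E-boxes (CANNTG), which myogenic and other basic helix-loop-helix factors can bind, the hypoxia response core (ACGTG, both strands) and the MEF2 consensus, a motif of muscle promoters. An E-box of the form CACGTG also holds the hypoxia core.
Ldha (chr7:46845554-46845803, plus strand): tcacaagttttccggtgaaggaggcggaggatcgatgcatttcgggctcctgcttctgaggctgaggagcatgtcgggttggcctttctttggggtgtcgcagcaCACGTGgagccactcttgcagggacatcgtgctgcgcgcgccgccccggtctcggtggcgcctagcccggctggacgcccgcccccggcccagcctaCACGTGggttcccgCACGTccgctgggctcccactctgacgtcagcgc
Ldhb (chr6:142507958-142508207, minus strand): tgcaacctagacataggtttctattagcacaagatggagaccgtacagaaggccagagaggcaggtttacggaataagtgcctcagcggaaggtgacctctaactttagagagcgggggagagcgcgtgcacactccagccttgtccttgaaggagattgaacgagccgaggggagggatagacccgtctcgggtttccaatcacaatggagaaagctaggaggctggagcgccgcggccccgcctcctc
Pgam2 (chr11:5803797-5804046, minus strand): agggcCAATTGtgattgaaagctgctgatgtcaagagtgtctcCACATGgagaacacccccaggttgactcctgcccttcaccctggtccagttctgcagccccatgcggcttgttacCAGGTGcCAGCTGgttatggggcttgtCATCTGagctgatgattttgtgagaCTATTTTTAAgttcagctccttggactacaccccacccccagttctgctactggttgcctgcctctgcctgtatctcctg
Pgam1 (chr19:41911621-41911870, plus strand): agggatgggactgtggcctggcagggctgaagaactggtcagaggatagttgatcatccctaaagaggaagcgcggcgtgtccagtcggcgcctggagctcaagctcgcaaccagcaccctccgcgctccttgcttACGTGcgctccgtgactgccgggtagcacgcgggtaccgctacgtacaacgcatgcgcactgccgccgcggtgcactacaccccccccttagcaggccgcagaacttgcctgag

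The Ldha window holds 2 E-boxes, both CACGTG, and 3 separate places with the hypoxia core, while that of Ldhb holds none of the 3 motifs. The Pgam2 window holds 5 E-boxes, 1 of them CAGCTG, and a MEF2 match, while that of Pgam1 holds 1 hypoxia core and no E-box. The windows of Pfkm and Pfkl, which are not shown, hold 3 E-boxes each, so that this pair lacks such a difference in E-boxes. That of Pfkm also holds the hypoxia core, and that of Pfkl does not. The Ldha window starts from RefSeq's start, which lies 4329 bases inside the gene model used for counting. Of 32851 windows of the same length, 66.2% hold an E-box, 13.001% the form CAGCTG, 16.6% the hypoxia core, 12.4% a TATA box (TATAAA) and 2.92% a MEF2 match. Of the 35 genes of the module with a window (Gpd1 was not matched), 23 held an E-box (65.7%), 8 the form CAGCTG (22.9%), 10 the hypoxia core (28.6%), 2 a TATA box and 2 a MEF2 match, Pgam2 and Ppp1r3a. A match is a run of letters and not a bound site.

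Soleus and gastrocnemius were also compared in double KO mice. Of the 36 genes 4 were higher and 21 lower in soleus (39.7% of all genes called, 21.6% higher and 18.1% lower), with a median log2 difference of −1.04 (0.10 over all genes). Gpd2 (−2.92), Gpd1 (−2.74), Phka1 (−2.70) and Phkg1 (−2.47) were among the lower genes, and Ldhb (2.35), Gbe1 (1.00) and Pgam1 (0.97) among the higher, all with an adjusted p of at most 0.000224. Of these, 3 of the higher and 21 of the lower genes were also called in controls, which are other mice. Pgm2 was called in double KO (0.72, adjusted p = 0.013) and missed the threshold in controls (0.53, 0.055), and Pfkl was called in controls and not in double KO (0.19, 0.242). The Pgm2 call was lost without gastrocnemius double KO 1 (0.0541). In a fit of the compared libraries alone the Tpi1 and Pgam2 calls were lost (0.0837 and 0.0739). With the mouse as a block, Aldoc (adjusted p = 0.0486) and Ppp1r3d (0.00324) were called in addition.

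**Figure D1:**
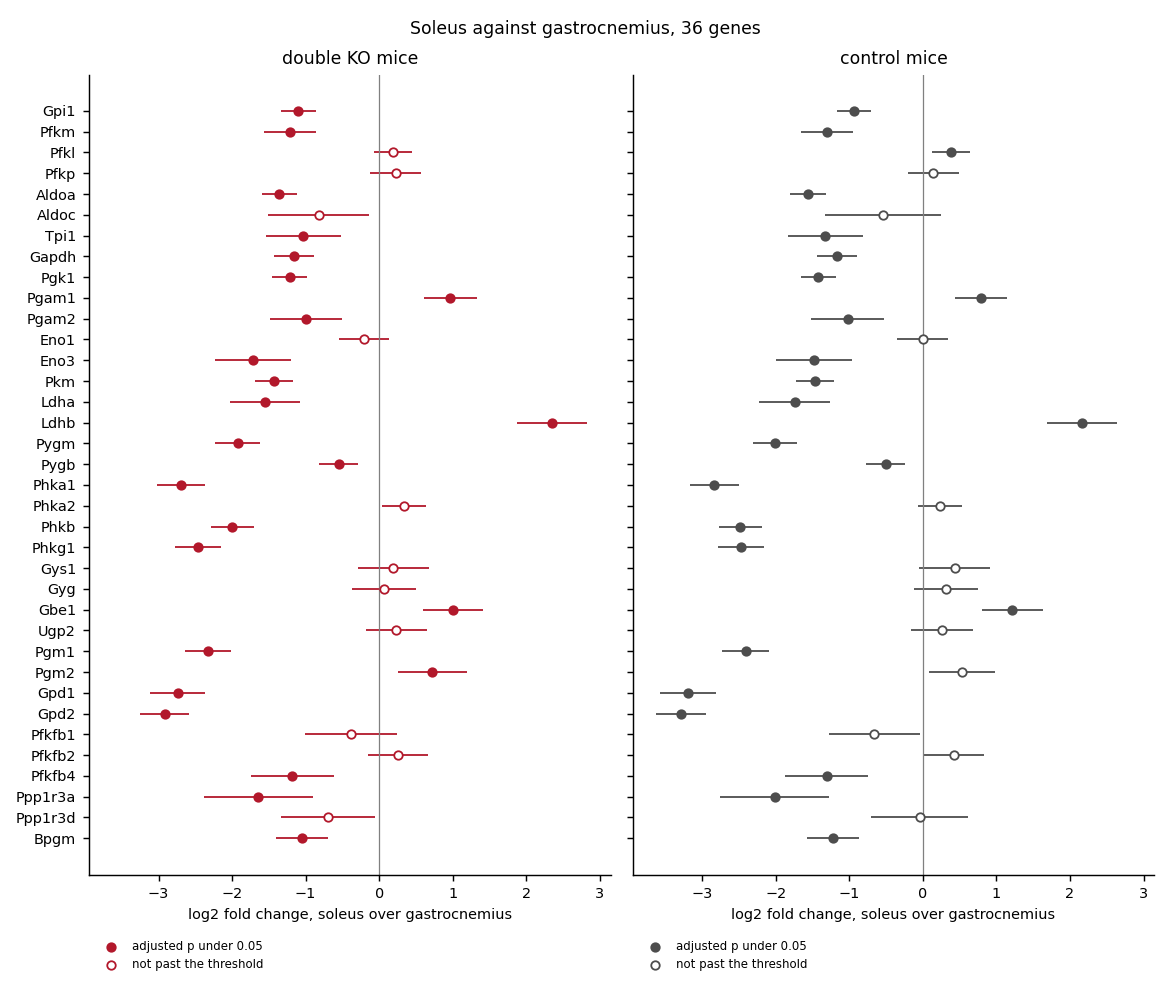
Log2 fold change of each of the 36 genes, soleus over gastrocnemius, in double KO mice (left) and control mice (right), with 95% confidence intervals from the fit of all 32 libraries. Filled points have an adjusted p under 0.05. Gpd2 and Gpd1 lie furthest left in both panels and Ldhb furthest right.

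In gastrocnemius, several genes of the module were lower in mice without both receptors. Of the 36 genes, 9 fell and 1 rose in double KO against control, 10 in all (27.8%; DESeq2 called 11), where 20.9% of all genes tested were called (11.4% higher, 9.59% lower). The median log2 change was −0.05 for the 36 genes and 0.0004 for all genes. The genes that fell were Pfkfb1, Phka1, Pgm2, Gpd1, Bpgm, Phkb, Pfkm, Tpi1 and Ugp2, and the one that rose was Aldoc. Without double KO 3 the number called was 5, and in a fit of the compared libraries alone it was 4. In 7 of the 36 genes all 4 double KO libraries lay below all 4 controls (Bpgm, Gpd1, Pfkfb1, Pfkm, Phka1, Phkb and Ugp2) and in 0 above, where the libraries of 21.3% of all genes did not overlap (10.9% lower). Several marker lists moved in the same comparison: of the fast-fibre contractile genes 1 rose and 4 of 12 fell (summed level 136632 to 164476 CPM in double KO, 171849 to 209604 CPM in control), of the slow-fibre genes 8 of 10 fell (973 to 1637 CPM in double KO, 2103 to 3171 CPM in control), and of the macrophage markers 6 of 9 rose (92.3 to 168 CPM in double KO, 68.04 to 78.9 CPM in control). Of the adipocyte markers 3 of 7 fell (548 to 744 CPM in double KO, 1162 to 1633 CPM in control), and of the endothelial markers 4 of 8 fell (262 to 289 CPM in double KO, 319.8 to 363 CPM in control). Of the fibroblast markers 3 of 7 rose, of the smooth muscle markers 2 of 6 fell, of the satellite cell markers 1 of 5 rose and 1 fell, and of the Schwann and neutrophil markers 0 passed. No marker of these lists was at 0 in all libraries of either group. The part of these shifts in the values of the module was not tested.

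Among the regulators and steps of glycolysis itself, 3 genes fell. Pfkfb1 (ENSMUSG00000025271, chromosome X, 150588229 to 150643878) encodes a bifunctional enzyme that makes and removes fructose 2,6-bisphosphate, the activator of phosphofructokinase. It had 32.4, 44.4, 42.9 and 51.3 CPM in double KO and 61.2, 68.9, 64.8 and 70.1 CPM in control gastrocnemius, a log2 change of −0.62 (SE 0.11, adjusted p = 0.000974). Every double KO library was lower than every control. Pfkm (ENSMUSG00000033065, chromosome 15, 98092589 to 98132451), the muscle phosphofructokinase that commits sugar to glycolysis, had 2779, 3663, 3582 and 3789 CPM in double KO and 3878, 4425, 3960.3 and 4674 CPM in control (log2 change −0.28, SE 0.093, adjusted p = 0.0395). Its groups did not overlap, with double KO 4 close below the lowest control. The call was lost when double KO 1 or 3 or control 2 or 4 was left out (0.0678 to 0.106), in a fit of the compared libraries alone (0.141) and with no filter on low counts (0.0594). Triose phosphate isomerase (Tpi1; ENSMUSG00000023456, chromosome 6, 124810586 to 124814296), which interconverts the triose phosphates, had 611, 1162, 1109 and 1133 CPM in double KO and 1439, 1473, 1146 and 1613 CPM in control (log2 change −0.49, SE 0.16, adjusted p = 0.0399). Here double KO 1 was far below its group and double KO 2 was above the lowest control. The Tpi1 call was lost when double KO 1 or 3 or control 1, 2 or 4 was left out (0.0549 to 0.097), in a fit of the compared libraries alone (0.118), with no filter on low counts (0.0619) and without the 3 gastrocnemius libraries that stood apart (0.0643). Tpi1 had fractional counts in all 32 libraries, as reads shared with near-identical copies were divided, so that its level is uncertain.

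Of the 4 phosphorylase kinase subunit genes in the module, 2 fell. Phka1 (ENSMUSG00000034055, chromosome X, 102513975 to 102644246) had 835, 1088, 1025 and 1025 CPM in double KO and 1373, 1388, 1209.7 and 1451 CPM in control, a log2 change of −0.44 (SE 0.087, adjusted p = 0.00192). Phkb (ENSMUSG00000036879, chromosome 8, 85840959 to 86061376) had 383, 517, 447 and 459 CPM in double KO and 627, 527, 601 and 537 CPM in control (log2 change −0.33, SE 0.10, adjusted p = 0.0194). In both genes the double KO libraries were all below the controls, and for Phkb the gap between double KO 2 and control 2 was small. The Phkb call was lost when double KO 3 was left out (0.0518), in a fit of the compared libraries alone (0.0695) and without the 3 gastrocnemius libraries that stood apart (0.0763). The catalytic subunit Phkg1 did not pass (log2 change 0.027, 95% interval −0.14 to 0.19), nor did Phka2 (0.066, interval −0.12 to 0.26) or the target of the kinase, Pygm (−0.035, interval −0.22 to 0.15). Phkg1 and Pygm had fractional counts in 32 and 18 libraries.

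Of the genes around glucose 1-phosphate, Pgm2 and Ugp2 fell. Pgm2 (ENSMUSG00000029171, chromosome 5, 64092950 to 64128351), whose human counterpart acts mainly on pentose phosphates, had 2.32, 3.29, 3.204 and 4.55 CPM in double KO and 7.35, 6.58, 4.39 and 6.66 CPM in control, a log2 change of −0.89 (SE 0.20, adjusted p = 0.00413). Control 3 lay below double KO 4, and the other 3 controls were above all double KO libraries. Pgm1 did not pass (0.030, interval −0.13 to 0.19). Ugp2 (ENSMUSG00000001891, chromosome 11, 21321138 to 21371201) had 490.2, 597, 540.4 and 521 CPM in double KO and 838, 598, 694 and 619 CPM in control (log2 change −0.35, SE 0.12, adjusted p = 0.0432). Its groups met without overlapping, with double KO 2 just under control 2. The Ugp2 call was lost when double KO 1, 3 or 4 or control 1 or 3 was left out (0.078 to 0.109), in a fit of the compared libraries alone (0.0947), with the replicate number as a block (0.0572) and without the 3 gastrocnemius libraries that stood apart (0.161).

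Of the glycerol phosphate shuttle, the cytosolic enzyme Gpd1 (ENSMUSG00000023019, chromosome 15, 99717515 to 99725005) had 295, 445, 452 and 445 CPM in double KO and 628, 643, 478 and 671 CPM in control gastrocnemius, a log2 change of −0.55 (SE 0.13, adjusted p = 0.00529). The libraries did not overlap, and double KO 1 was the lowest. Its mitochondrial partner Gpd2 did not pass (−0.059, interval −0.26 to 0.14). Gpd1 lies 1.45 Mb and Pfkm 3.04 Mb from the deleted Acvr1b on chromosome 15. The part of the targeted locus in their change was not tested. Gpd1 is also abundant in fat, and the summed adipocyte markers were lower in the same libraries (744, 548, 557 and 714 CPM in double KO, 1162, 1633, 1202 and 1545 CPM in control). Their part in the Gpd1 result was not tested. Bisphosphoglycerate mutase (Bpgm; ENSMUSG00000038871, chromosome 6, 34476207 to 34505613), the enzyme of red cells that makes 2,3-bisphosphoglycerate, had 52.6, 85.1, 74.02 and 79.97 CPM in double KO and 104, 97.3, 87.7 and 100.2 CPM in control (log2 change −0.40, SE 0.11, adjusted p = 0.0139). Double KO 2 came close below control 3, and double KO 1 was lowest. All 6 measured erythroid markers fell too, with a summed level of 184 to 387 CPM in double KO and 259.6 to 693 CPM in control. Their part in the Bpgm result was not tested. The Bpgm call was lost in a fit of the compared libraries alone (0.0729).

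The gene that rose, Aldoc (ENSMUSG00000017390, chromosome 11, 78322968 to 78327781), had 0.719, 0.294, 0.631 and 0.6097 CPM in double KO and 0.213, 0.249, 0.402 and 0.3097 CPM in control (log2 change 0.97, SE 0.32, adjusted p = 0.0411). Double KO 2 lay within the controls, at levels that are very low in every library. The call was lost when double KO 1, 3 or 4 or control 1, 2 or 4 was left out (0.0717 to 0.102), in a fit of the compared libraries alone (0.0781), with no filter on low counts (0.0704), without the 3 gastrocnemius libraries that stood apart (0.173) and by DESeq2 (0.0692). Phka1, Pgm2, Gpd1 and Pfkfb1 stayed past the threshold in all 14 alternatives of this comparison, with the highest adjusted p at 0.0209, 0.0293, 0.0374 and 0.00914.

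**Figure D2:**
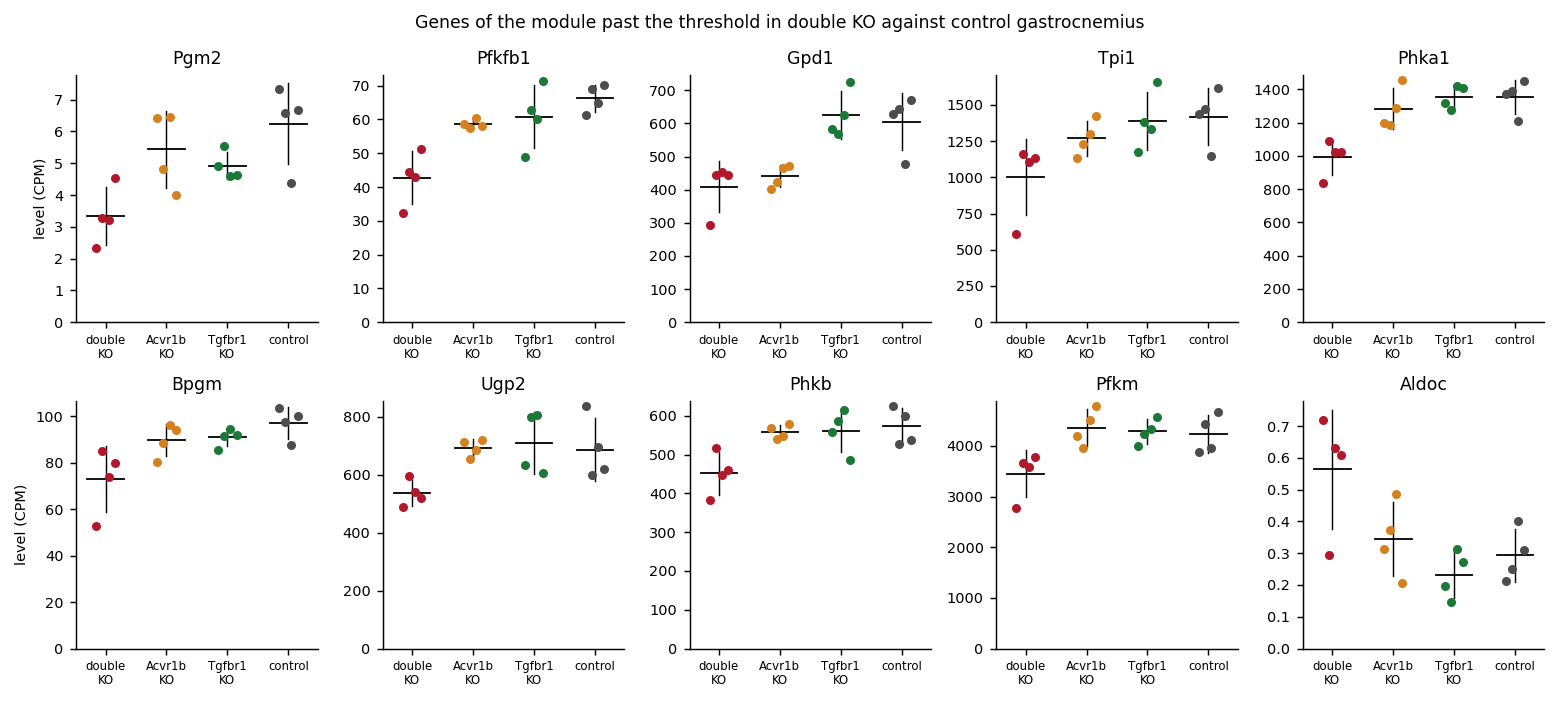
Level in CPM of the 10 genes called in double KO against control gastrocnemius, for the 4 libraries of double KO, Acvr1b KO, Tgfbr1 KO and control from left to right, with the mean (horizontal line) and SD (vertical line). In Gpd1 the Acvr1b KO libraries sit beside double KO, and in Phka1, Phkb and Pfkm the double KO libraries sit below every other group's mean.

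The other 26 genes did not pass in gastrocnemius, with log2 changes from −0.52 (Ppp1r3a) to 0.89 (Ppp1r3d). Closest to the threshold were Ppp1r3d, another glycogen-targeting subunit of protein phosphatase 1 (0.89, adjusted p = 0.0513), Gbe1 (0.51, 0.0544), Ldhb (−0.44, 0.0799) and Aldoa (−0.23, 0.0954). Ppp1r3d had 1.24, 5.76, 3.83 and 3.96 CPM in double KO and 1.52, 2.07, 2.598 and 1.91 CPM in control, so that double KO 1 was below all controls and the other 3 were above them. It was called without double KO 1 (adjusted p = 0.00118) or control 3 (0.0459), by DESeq2 (0.0275), with the replicate number as a block (0.0444) and without the 3 libraries that stood apart (0.00359). Gbe1 had 137, 81.1, 77.9 and 74.4 CPM in double KO and 77.7, 59.9, 55.5 and 69.7 CPM in control, with double KO 1 highest, and was called without double KO 4 (0.0367) or control 1 (0.0364), by DESeq2 (0.0338) and without the 3 libraries that stood apart (0.0225). Ldhb was called without double KO 4 (0.0399) or control 1 (0.0356), with the replicate number as a block (0.0283) and without the 3 libraries that stood apart (0.00676). Aldoa was called without control 1 (0.018) and without the 3 gastrocnemius libraries that stood apart (0.0136). For several abundant enzymes the 95% interval of the log2 change lay close around 0: Gapdh −0.16 to 0.28, Pkm −0.13 to 0.30, Pygm −0.22 to 0.15 and Pgm1 −0.13 to 0.19. Gapdh and Pkm had fractional counts in all 32 libraries, Pygm in 18 and Pgm1 in 17. Their levels are thus uncertain by what was divided between copies, which these intervals do not cover.

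Neither single knockout moved a gene of the module past the threshold. In Acvr1b KO against control gastrocnemius 0 of 36 were called by edgeR and 0 by DESeq2, 1 had an unadjusted p under 0.05, and 0.0285% of all genes were called. That gene was Gpd1, with 403, 424, 465 and 471 CPM in Acvr1b KO, below all 4 controls (log2 change −0.45, SE 0.13, adjusted p = 0.661). Pfkfb1 was also below all controls (57.4 to 60.4 CPM in Acvr1b KO, 61.2 to 70.1 CPM in control; log2 change −0.17, SE 0.11, adjusted p = 1), and these were the only 2 of the 36 without overlap, where 2.88% of all genes had none. In Tgfbr1 KO against control 0 of 36 were called by either tool, 0 had an unadjusted p under 0.05, and 0.171% of all genes were called. In soleus both single knockouts gave 0 calls by either tool and 0 genes of the module with an unadjusted p under 0.05 (0.022% of all genes called in Acvr1b KO and 0.0496% in Tgfbr1 KO). These comparisons share their control libraries with those of the double KO.

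Set against the single knockouts, the double KO gastrocnemius differed mainly in genes already named. Against Acvr1b KO, 6 of the 36 genes fell and 1 rose (19.4%; 16.3% of all genes, 9.2% higher and 7.06% lower), with a median log2 change of −0.08. The 4 largest falls were those of Pgm2 (−0.69, adjusted p = 0.0249), Pfkfb1 (−0.45, 0.0123), Phka1 (−0.36, 0.00899) and Ugp2 (−0.36, 0.0439). Gbe1 rose, with 137, 81.1, 77.9 and 74.4 CPM in double KO and 73.01, 55.8, 61.1 and 65.7 CPM in Acvr1b KO (log2 change 0.55, SE 0.18, adjusted p = 0.0482). Gpd1 did not pass (−0.10, interval −0.37 to 0.17). Phka1 and Pfkfb1 were called in all 14 alternatives. Without one library the number of genes called was 4 (without Acvr1b KO 1 or 2 or double KO 1 or 3), 3 (without Acvr1b KO 4) or 2 (without Acvr1b KO 3), and without the 3 libraries that stood apart it was 12. The Pgm2 call was lost when Acvr1b KO 1 or 3 or double KO 1, 2 or 3 was left out (0.0565 to 0.0853) and without the 3 gastrocnemius libraries that stood apart (0.0522), that of Ugp2 when Acvr1b KO 1, 2, 3 or 4 or double KO 1, 3 or 4 was left out (0.063 to 0.102) and with the replicate number as a block (0.0539), and that of Gbe1 when Acvr1b KO 2, 3 or 4 or double KO 1 was left out (0.0865 to 0.16), in a fit of the compared libraries alone (0.0814) and with no filter on low counts (0.0775). The other 2 that fell were Pfkm and Phkb (−0.33 and −0.30). Pfkm was lost when Acvr1b KO 3 or 4 was left out (0.0598 to 0.0732), and Phkb when Acvr1b KO 1, 2, 3 or 4 or double KO 1, 3 or 4 was left out (0.0639 to 0.0925), with no filter on low counts (0.0545) and with the replicate number as a block (0.0526).

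Against Tgfbr1 KO, 6 of the 36 genes fell and 1 rose (19.4%; 12.9% of all genes, 7.44% higher and 5.42% lower), with a median log2 change of −0.13. The number called was 3 without double KO 3 or Tgfbr1 KO 2 and 4 without Tgfbr1 KO 3. The 4 largest falls were those of Gpd1 (log2 change −0.60, SE 0.13, adjusted p = 0.00504), Pfkfb1 (−0.50, 0.00837), Phka1 (−0.44, 0.00325) and Ugp2 (−0.39, 0.0348), and Aldoc rose (log2 change 1.31, SE 0.34, adjusted p = 0.0189). Gpd1 had 295, 445, 452 and 445 CPM in double KO and 583, 567, 625 and 726 CPM in Tgfbr1 KO, without overlap. The Ugp2 call was lost when double KO 1, 3 or 4 or Tgfbr1 KO 2 or 3 was left out (0.0749 to 0.11), and the Aldoc call when double KO 3 or Tgfbr1 KO 2 was left out (0.0523 to 0.0847) and without the 3 gastrocnemius libraries that stood apart (0.0586). Pfkm and Phkb also fell (−0.30 and −0.30). Pfkm was lost when double KO 1, 2 or 3 or Tgfbr1 KO 1, 2, 3 or 4 was left out (0.0501 to 0.0978), in a fit of the compared libraries alone (0.0895) and with no filter on low counts (0.0588), and Phkb when double KO 1, 3 or 4 or Tgfbr1 KO 1, 2 or 3 was left out (0.0711 to 0.12501), in a fit of the compared libraries alone (0.0892), with no filter on low counts (0.0549), with the replicate number as a block (0.0638) and without the 3 gastrocnemius libraries that stood apart (0.0833). The departure from additivity, double KO minus both single effects, was called in 0 of the 36 genes by edgeR and in 0 by DESeq2, with 5 at an unadjusted p under 0.05 and 2.14% of all genes called. The median departure of the 36 genes was −0.10, and that of all genes 0.01. In soleus the departure was called in 0 of the 36 genes by edgeR and by DESeq2, with 1 at an unadjusted p under 0.05, and in 0% of all genes.

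In soleus no gene of the module passed the threshold in mice without both receptors. By edgeR 0 of the 36 genes and 0.722% of all genes were called in double KO against control, DESeq2 called 0 of the 36, and 1 had an unadjusted p under 0.05. That gene was Pgm2, with 5.47, 5.19, 5.38 and 6.12 CPM in double KO and 7.43, 9.88, 8.72 and 10.2 CPM in control soleus, all double KO libraries below all controls (log2 change −0.70, SE 0.24, adjusted p = 0.231). It was the only one of the 36 whose libraries did not overlap, against 7.82% of all genes. Without the 2 soleus libraries that stood apart it was called (adjusted p = 0.0233). Of the genes that fell in gastrocnemius, Tpi1 had 158, 576, 571 and 661 CPM in double KO and 544, 636, 492 and 586 CPM in control soleus. Ugp2 had 273, 757, 747 and 750.005 CPM in double KO and 796, 930.4, 821 and 752 CPM in control soleus. Pfkfb1 had 5.84, 38.2, 40.3 and 47.1 CPM in double KO and 45.2, 42.8, 31.5 and 48.4 CPM in control soleus. In all 3 genes double KO 1 was far below the other libraries, and the other 3 double KO libraries overlapped with the controls. Double KO against each single knockout in soleus also gave 0 calls by either tool, with 2 of the 36 genes at an unadjusted p under 0.05 in each (0.127% of all genes against Acvr1b KO and 0.0496% against Tgfbr1 KO).

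The double KO effect was not shown to differ between the muscles in any of the 36 genes. The test of soleus minus gastrocnemius called 0 of them by edgeR and 0 by DESeq2, with 1 at an unadjusted p under 0.05 (Phkb, 0.49 (SE 0.19, adjusted p = 0.394)) and 0.732% of all genes called. The intervals were wide: the half-width of the 95% interval had a median of 0.43 (log2) in soleus and 0.26 in gastrocnemius. For Pfkfb1 the change was −0.62 in gastrocnemius and −0.35 (interval −1.19 to 0.48) in soleus, and for Phka1 it was −0.44 in gastrocnemius and −0.31 (interval −0.68 to 0.073) in soleus.

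**Figure D3:**
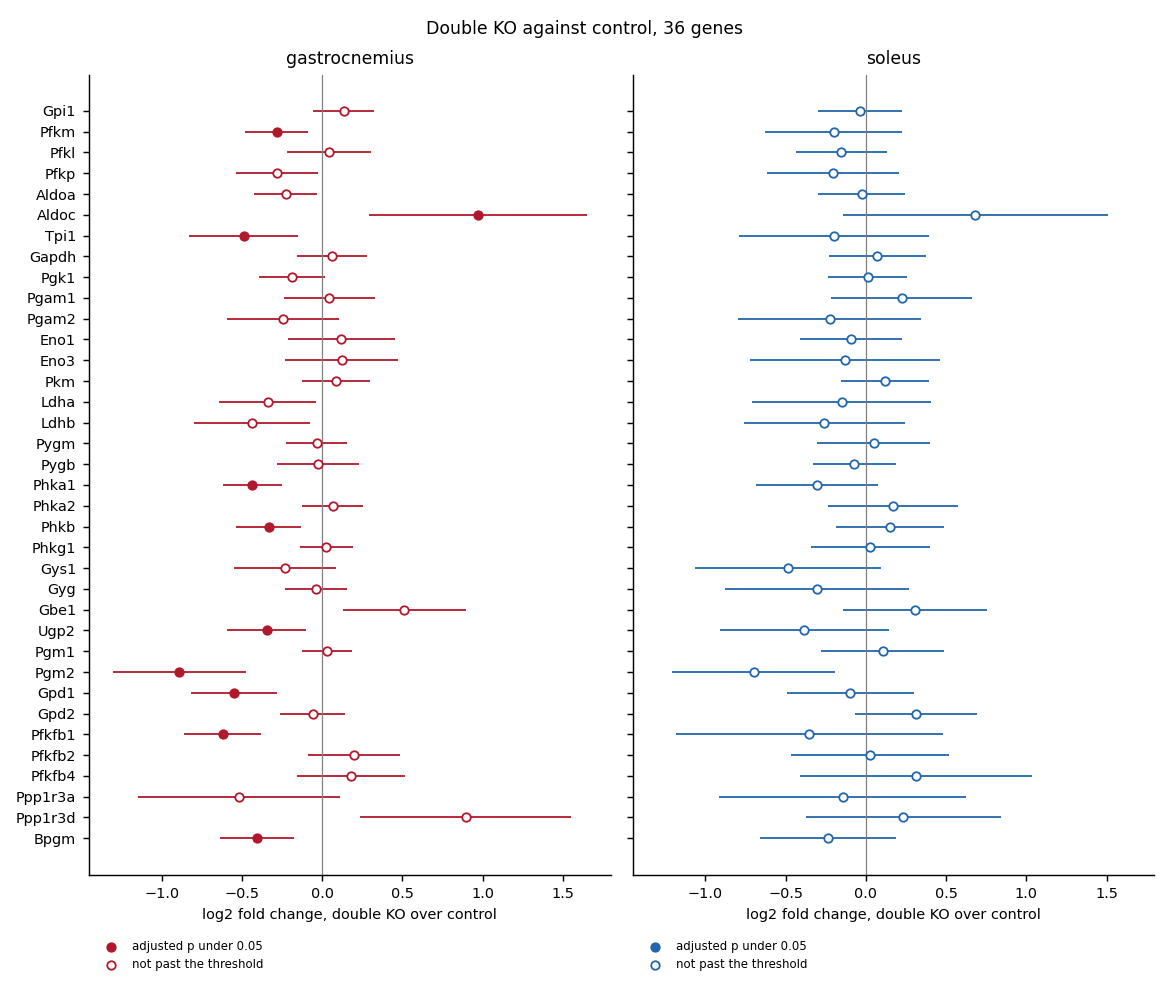
Log2 fold change of each of the 36 genes, double KO over control, in gastrocnemius (left) and soleus (right), with 95% confidence intervals from the fit of each muscle. Filled points have an adjusted p under 0.05: 10 in gastrocnemius and 0 in soleus, where the intervals are wider.

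In RNA, Ldhb was the larger share of lactate dehydrogenase in soleus and the smaller share in gastrocnemius. Protein was not measured. As a share of CPM per kb of Ldha and Ldhb together, Ldhb made up 76.4, 74.3, 77.8 and 75.9% in the 4 control soleus libraries and 15.3, 16.95, 20.95 and 16.96% in the 4 control gastrocnemius libraries (76.1 ± 1.43% and 17.5 ± 2.42%, mean ± SD, n = 4 each). The share was high in every soleus library and low in every gastrocnemius library. The minor share of the other steps was also higher in soleus: Phka2 of the phosphorylase kinase α subunits 4.899 ± 0.605% in soleus against 0.606 ± 0.0298% in gastrocnemius, Pygb of the phosphorylases 0.685 ± 0.155% in soleus against 0.236 ± 0.02296% in gastrocnemius, and Eno1 of the enolases 0.699 ± 0.0973% in soleus against 0.253 ± 0.0152% in gastrocnemius. Pgam1 had 0.433 ± 0.05004% of the mutases in soleus and 0.126 ± 0.0291% in gastrocnemius, and Pfkl with Pfkp 0.425 ± 0.118% of the phosphofructokinases in soleus and 0.138 ± 0.0154% in gastrocnemius. In these 6 steps no library of one muscle overlapped with the other, while the aldolases did. Each of the 6 reached p = 0.0286 in a 2-sided exact permutation test, the smallest p that 4 against 4 libraries allow, and 0.0857 after adjustment over 21 such tests, so that none passed. Both muscles came from the same 4 mice, while this test treats the 8 libraries as independent, and a sign-flip test over 4 mice cannot go below 0.05. Markers of other cell types also differed between these libraries: 6 of 8 endothelial markers were higher in soleus (summed level 494 to 583 CPM in soleus, 319.8 to 363 CPM in gastrocnemius), 3 of the 5 measured neutrophil markers (7.64 to 11.8 CPM in soleus, 4.48 to 6.07 CPM in gastrocnemius), 6 of 7 adipocyte markers (1406 to 1792 CPM in soleus, 1162 to 1633 CPM in gastrocnemius), 4 of 6 smooth muscle markers (390.3 to 609.8 CPM in soleus, 282 to 402 CPM in gastrocnemius) and 1 each of the macrophage, fibroblast, Schwann and satellite cell markers. Their part in the shares was not tested. Eno1, Pgam1, Ldha, Ldhb, Pygb, Pygm and Aldoa had fractional counts in 16 or more libraries, so that the shares of their steps are uncertain by what was divided between copies.

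Between genotypes of 1 muscle the shares mostly overlapped. The Ldhb share was 16.4 ± 1.24% in double KO and 17.5 ± 2.42% in control gastrocnemius (exact permutation p = 0.629), and 74.9 ± 2.06% in double KO and 76.1 ± 1.43% in control soleus (exact permutation p = 0.40). The exception was the α subunit of phosphorylase kinase in gastrocnemius, where Phka2 made up 1.09, 0.766, 0.766 and 0.854% in double KO and 0.578, 0.582, 0.629 and 0.634% in control. All double KO libraries were above all controls (exact permutation p = 0.0286, adjusted 0.0857), while the Phka2 level itself did not pass (0.066) and that of Phka1 fell.

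**Figure D4:**
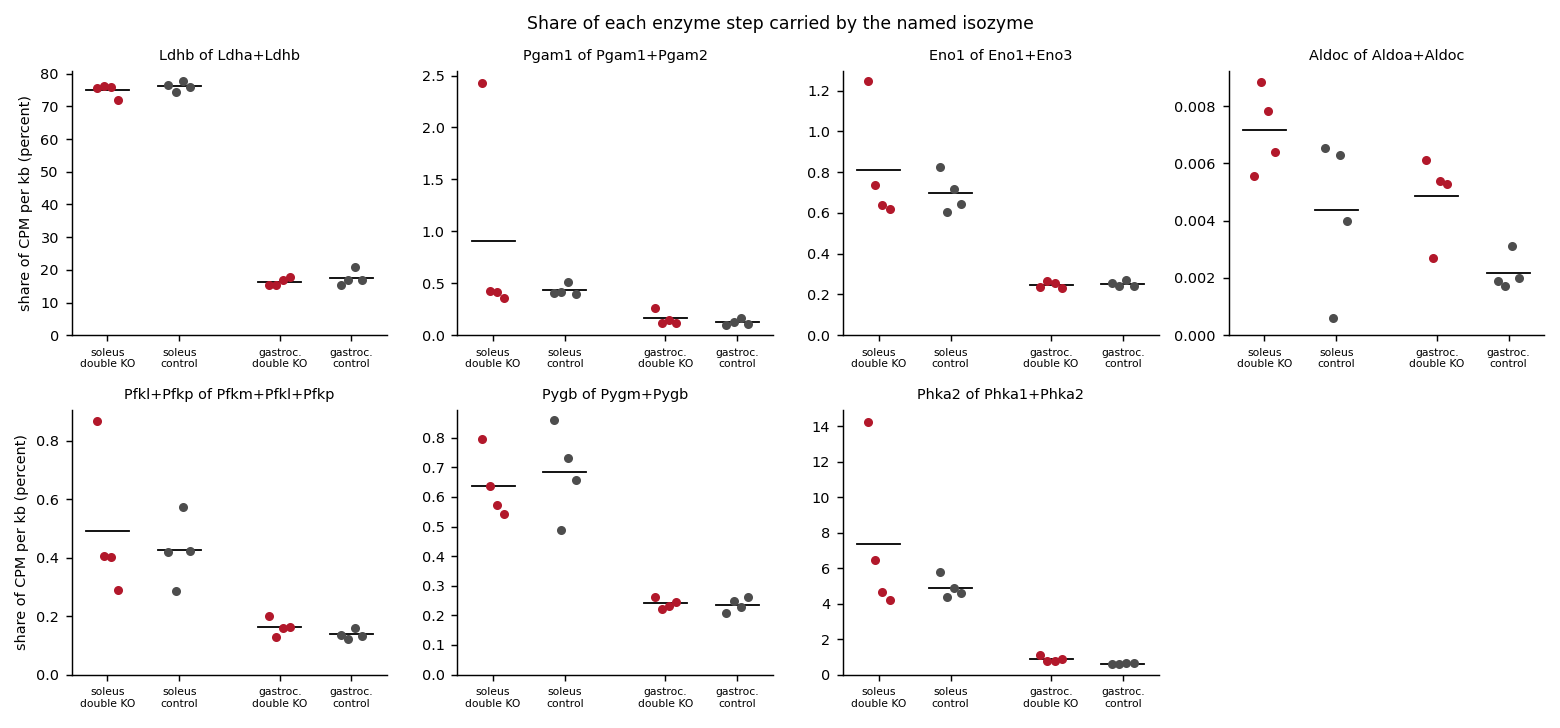
Share of CPM per kb carried by the isozyme named above each panel, in percent of the isozymes of that step, for the 4 libraries of soleus double KO, soleus control, gastrocnemius double KO and gastrocnemius control (points; bars are means). Ldhb makes up most of lactate dehydrogenase in all soleus libraries and 15.3 to 20.95% in these gastrocnemius libraries.

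Around the 36 genes lie others of the same pathways, and 40 of these were listed, 32 of which were measured in gastrocnemius. In double KO against control 4 rose and 8 fell (37.5%), where 20.9% of all genes were called, with a median log2 change of −0.17. This list was also chosen with earlier results of these data known, so that its share is not that of a list drawn up apart from them. Of the 4 that rose, Stbd1, which tethers glycogen to membranes, had 105, 87.8, 108 and 94.7 CPM in double KO and 40.3, 31.1, 25.5 and 44.1 CPM in control (log2 change 1.502, SE 0.27, adjusted p = 0.000743). The double KO libraries all lay above the controls. Hexokinase 1 (Hk1), which traps glucose in the cell, had 19.8, 20.5, 19.9 and 19.7 CPM in double KO and 8.36, 7.69, 8.05 and 8.31 CPM in control (log2 change 1.31, SE 0.088, adjusted p = 5.31e-08), again with a wide gap between the groups. Pfkfb3, a relative of Pfkfb1 with high kinase activity, had 425, 601, 668 and 462 CPM in double KO and 239, 209, 474 and 247 CPM in control (log2 change 0.89, SE 0.31, adjusted p = 0.0487), and control 3 overlapped with double KO. The alternative fits were examined for the 36 genes only, so that this call and the others of this paragraph were not checked in that way. Nhlrc1 (malin), a ubiquitin ligase of glycogen metabolism, rose by a log2 change of 0.71 (adjusted p = 0.0011). Among the genes that fell were the glucose transporter Slc2a3 (3.204 to 4.16 CPM in double KO, 12.2 to 17.5 CPM in control; log2 change −1.995, SE 0.16, adjusted p = 3.48e-07) and muscle fructose bisphosphatase (Fbp2; 7.75 to 12.6 CPM in double KO, 32.6 to 38.9 CPM in control; log2 change −1.67, SE 0.14, adjusted p = 7.14e-07). The glycogen-targeting subunit Ppp1r3b fell as well, at levels that are very low in every library (log2 change −1.25, SE 0.33, adjusted p = 0.0118). It had 0.262, 0.499, 0.454 and 0.229 CPM in double KO and 0.825, 0.830, 0.512 and 1.29 CPM in control, with double KO 2 close below control 3. The glycogen-targeting subunit Ppp1r3c also fell, with 1179.7, 1073, 1174 and 1089.8 CPM in double KO and 2209, 2333, 1878 and 2463 CPM in control (log2 change −0.96, SE 0.16, adjusted p = 0.000398). Of the other pathway genes, Ppp1r3c was also the 1 of 31 called in soleus, where 0.722% of all genes were called. It had 186, 331, 467 and 589 CPM in double KO and 1079, 1196, 817 and 1474 CPM in control soleus (log2 change −1.53, SE 0.29, adjusted p = 0.0206), again without overlap.

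**Figure D5:**
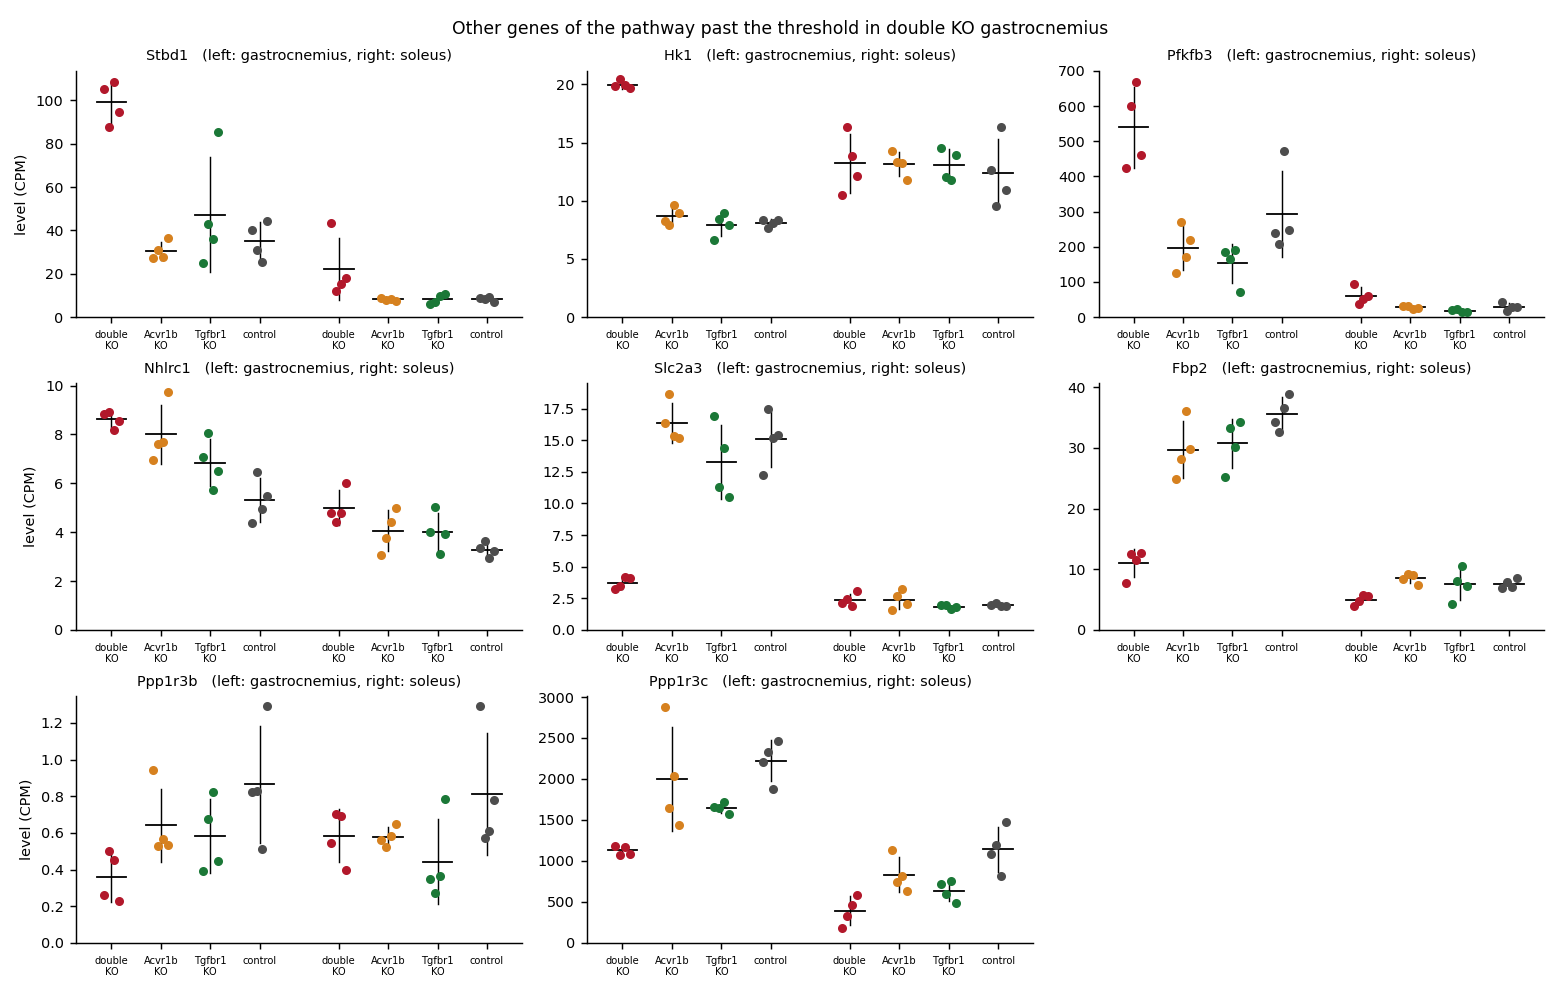
Level in CPM of 8 of the other pathway genes called in double KO against control gastrocnemius, for double KO, Acvr1b KO, Tgfbr1 KO and control in gastrocnemius (left in each panel) and soleus (right), with means and SD. In Hk1, Slc2a3 and Fbp2 the gastrocnemius double KO libraries stand apart from the other 3 genotypes, and in Ppp1r3c the double KO is lowest in both muscles.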

How the data were processed

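PolyA RNA was sequenced from 32 muscle samples. The deposited values are estimated counts per gene, made with featureCounts 2.0.1 on Ensembl 102 gene models of GRCm38, reverse-stranded, with reads of several places shared as fractions, per the file headers. The submitters' processing notes also name cutadapt, HISAT2 and FastQC. The deposited counts were rounded, filtered with filterByExpr and scaled by TMM, and edgeR 4.0.16 (R 4.3.3, limma 3.58.1) fitted quasi-likelihood models per muscle (16 libraries, 17536 genes in gastrocnemius, 18143 in soleus) and over all 32 libraries (18726 genes, for contrasts between muscles). Benjamini-Hochberg adjustment ran over all genes tested. CPM use the scaling of all 32 libraries. The steps were tested on simulated data.

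The replicate numbers follow the titles. Both muscles of a mouse carry its animal number, and their deviations from the group means correlated with a median r of 0.140 over 16 mice, 11 of them over 0.1. The genes and lists were chosen with earlier results of these data known. Values are given library by library for genes past the threshold in double KO against control, for up to 6 per direction between muscles and for up to 4 per direction elsewhere, and for up to 5 of the other pathway genes, 1 of which is not reported here. A few further genes are named for context, chosen after their values were seen. DESeq2 1.42.0, RLE size factors, no filter on low counts, only the compared groups, blocks, single libraries left out and, chosen after seeing the data, 5 libraries left out together were the alternatives. Replicates are mice, and every group has 4.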

Additional observations from a re-analysis of the deposited data

Results flagged for a closer look

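In 90 groups of 4 libraries (levels of named genes and isozyme shares), 7 held a library far from the other 3, by Dixon's test at the 95% level. Chance gives about 1 in 20 groups, or 4.5. Gastrocnemius double KO 1 had 611 CPM of Tpi1, against 1109 to 1163 CPM in the other 3 double KO libraries, and 295 CPM of Gpd1, against 445 to 452 CPM. Soleus double KO 1 had 273 CPM of Ugp2, against 747 to 757 CPM in the other 3, and Pgam1 made up 2.43% of its phosphoglycerate mutase transcripts per kb, against 0.360 to 0.423%. In soleus double KO 4 Ldhb made up 71.9% of lactate dehydrogenase transcripts per kb, against 75.7 to 76.1% in the other 3. Soleus control 3 had a Pgam1 share of 0.508%, against 0.401 to 0.414% in the other controls, and gastrocnemius control 1 had 220.46 CPM of Gpd2, against 209.25 to 209.72 CPM. Both double KO libraries numbered 1 are among those that stood apart over all genes.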

How the results depend on the processing

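In a fit of the compared libraries alone, 4 of the 36 genes were called in double KO against control gastrocnemius, in place of 10. Without the 5 libraries that stood apart, chosen after seeing the data, 1 was called in Tgfbr1 KO against control gastrocnemius, 12 in double KO against Acvr1b KO gastrocnemius, 2 for the departure from additivity in gastrocnemius, 1 in double KO against control soleus and 1 for the difference between muscles. Leaving out single libraries gave 5 to 10 calls in double KO against control gastrocnemius (5 without double KO 3), 2 to 7 against Acvr1b KO and 3 to 7 against Tgfbr1 KO. Between muscles it gave 24 to 26 calls in controls and 25 to 29 in double KO mice. It gave 0 to 0 in the other comparisons. The isozyme shares could pass only if more of their 21 tests reached the smallest p than the 7 that did with all libraries. Their 0 therefore does not show that the shares were alike. No called gene of the 36 changed sign. Uncalled values did: the lowest over the alternatives was −0.099 for Gyg between muscles in double KO mice (0.064 with all libraries) and −0.00054 for Ldhb in the double KO effect in soleus minus gastrocnemius (0.19). Samples of different genotypes share only a replicate number: their deviations had a median r of 0.013 in gastrocnemius and −0.029 in soleus, with 3 and 2 of 24 pairs over 0.1. With that number as a replicate block, 11 genes were called in double KO against control gastrocnemius, 6 against Acvr1b KO and 8 against Tgfbr1 KO. Between muscles, the mouse as a block added 3 calls in controls and 2 in double KO mice and ended none. Additivity needs all 4 groups and has no such fit. With 4 mice per group and wider intervals in soleus, changes inside those intervals were not detectable there.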
